A study of Rattus norvegicus with 6 samples.

Results

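Muscle miRNAs were followed in small RNA of the rat lumbar spinal cord. They were the rows of the table of known mature miRNAs named rno-miR-1, rno-miR-133a, rno-miR-133b, rno-miR-206 or rno-miR-499, with either arm of the hairpin (5p or 3p). Rows were picked by name and not by their values, although the set of names was drawn up with earlier results of these data known. Such a name was carried by 10 of the 753 rows in the table. Small RNA was sequenced on day 14 in 3 libraries of BCP rats (bone cancer pain) and 3 of sham-operated rats. The BCP rats were injected in the left tibia with living Walker 256 cells, a rat mammary carcinoma line grown as ascites in donor rats, and the sham-operated rats were injected with heat-killed cells of the same line. Both groups were therefore operated on, and no rat without surgery entered the comparison. The tissue was the lumbar enlargement on the injected side, stripped of its meninges, and the rats were female. The labels name the strain Wistar, whereas the methods of the study name Sprague Dawley, and an age is not given in the sources used here. The question asked of these miRNAs was whether they moved together from library to library or separately, which bears on whether muscle was carried over with the dissected cord.

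A miRNA is a short RNA cut from a hairpin precursor, and it lowers the output of messenger RNAs that pair with its seed, the bases near its 5′ end. The muscle miRNAs, often called myomiRs, are best known from heart and skeletal muscle, where transcription factors such as SRF, MyoD and myogenin drive them. miR-1 and miR-133a are made from shared primary transcripts, and miR-206 and miR-133b form another such pair that is found in skeletal muscle. miR-499 is encoded in an intron of Myh7b, a myosin heavy chain gene. miR-1 and miR-206 favour the differentiation of myoblasts, miR-133 favours their proliferation, and miR-499 takes part in the slow fibre programme. In nervous tissue miR-133b has been described in midbrain dopaminergic neurons.

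The sequences are shown because relatives among them differ by only a few bases and because their base composition is used further on. They were taken from RefSeq (build GRCr8), which held 9 of the 10 members and not miR-206-5p. Capitals mark the seed, bases 2 to 8 counted from the 5′ end.
miR-1-3p: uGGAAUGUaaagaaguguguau
miR-206-3p: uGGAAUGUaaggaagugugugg
miR-133a-3p: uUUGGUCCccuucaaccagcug
miR-133b-3p: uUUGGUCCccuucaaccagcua
miR-499-5p: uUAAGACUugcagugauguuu
miR-133a-5p: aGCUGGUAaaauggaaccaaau
miR-1-3p and miR-206-3p had the same seed and differed at 3 positions, A11G, A21G and U22G, each with the base of miR-1-3p first and positions counted from the 5′ end. miR-133a-3p and miR-133b-3p had the same seed and differed only at the last base, G22A. How the authors assigned reads that match both is not stated in the sources used here, so the split of reads between miR-133a-3p and miR-133b-3p is uncertain. miR-499-5p was the only row of the table with its seed, although miR-208a-3p and miR-208b-3p of heart muscle share its bases 2 to 7. On GRCr8 the mature miR-1-3p lay at chr18:2160339-2160360 and miR-133a-3p at chr18:2157886-2157907, both on the minus strand and within the span of Mib1. miR-206-3p lay at chr9:30590747-30590768 and miR-133b-3p at chr9:30594629-30594650, both on the plus strand and within a long non-coding RNA gene, LOC120094648. miR-499-5p lay at chr3:164570616-164570636 on the plus strand within Myh7b. These positions are those of RefSeq and not of Rnor 6.0, the build to which the authors mapped.

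The deposited values were read counts, and their total ranged from 13464349 to 23770677 per library. Levels are given as normalised CPM, which is counts per 1000000 reads after edgeR's TMM normalization, and 3 counts corresponded to between 0.126 and 0.223 CPM. Intervals on a single library cover counting error only, because the reads carried no molecular identifiers and some may be copies of the same molecule. BCP and sham libraries were set against each other by the quasi-likelihood test of edgeR. Its p values were adjusted by Benjamini-Hochberg across 459 miRNAs, those past a filter on low counts. A miRNA was called at an adjusted p below 0.05 with an absolute log2 fold change above 0.8. By this rule 16 of 459 miRNAs (3.49%) were called, all of them higher in BCP rats. The labels number 3 replicates in each group, and the study calls them biological replicates. Neither says outright that each was a rat of its own, so the p values measure only the spread between these libraries. Each library is called a rat here.

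Of the 10 muscle rows, 5 passed the filter. These were rno-miR-499-5p, rno-miR-133a-3p, rno-miR-1-3p, rno-miR-133b-3p and rno-miR-206-3p (written without the rat prefix elsewhere), in that order of level, and they stood at ranks 153, 207, 303, 314 and 346 of the 753 rows. miR-133a-5p was detected in all 6 libraries with 6 to 19 counts and did not pass. miR-499-3p had 1 count, in BCP 3, and none elsewhere. miR-1-5p, miR-133b-5p and miR-206-5p were listed at 0 in every library. A listed 0 sets no upper limit here, since both arms of miR-21 and of miR-186, which most tissues express, are also listed at 0 in all 6 libraries, so a row may have stayed empty for reasons other than level. The share of each arm can therefore be given only where both arms had counts. miR-133a-5p made up between 0.583% (exact 95% interval 0.235% to 1.20%) in sham 1 and 0.976% (0.589% to 1.52%) in BCP 1 of the reads of both miR-133a arms.

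miR-1-3p, which restrains Hdac4 and favours myoblast differentiation, was the only tested member whose TMM-normalised levels did not overlap between the groups, and the difference did not pass the test. Its normalised CPM was 15.2, 16.2 and 20.7 in BCP 1, 2 and 3, and 14.3, 12.1 and 14.4 in sham 1, 2 and 3. All 3 BCP libraries lay above all 3 sham libraries, but the lowest BCP library and the highest sham library were close, and their counting intervals overlapped. Scaled to total counts in place of TMM, BCP 1 (15.1 CPM) fell just below sham 3 (15.2 CPM), so the separation rested on the normalization. The means were 17.4 ± 2.92 in BCP rats and 13.6 ± 1.29 in sham-operated rats (SD, n = 3 each). The log2 fold change was 0.35 (SE 0.160, 95% interval −0.016 to 0.72, edgeR adjusted p = 0.404). BCP 3 carried much of the difference, since the log2 fold change without that rat was 0.20. It was 0.061 in a fit that corrected each library for the GC content of the miRNAs, an alternative added after seeing the data, and there the groups overlapped (22.2, 16.5 and 17.7 CPM against 19.2, 21.7 and 13.8 CPM). In bulk tissue, more cells with a miRNA and more of it per cell cannot be told apart.

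miR-133a-3p, which acts on SRF and keeps myoblasts dividing, was the second most abundant member and was level between the groups. Its normalised CPM was 81.8, 74.6 and 71.2 in the BCP libraries and 86.1, 75.6 and 63.5 in the sham libraries. Sham-operated rats held both the highest and the lowest library, so the BCP values lay inside the sham range. The means were 75.9 ± 5.39 and 75.0 ± 11.3 (SD, n = 3 each), and the log2 fold change was 0.016 (SE 0.143, 95% interval −0.31 to 0.35, edgeR adjusted p = 0.976). Its 5p arm, with 19, 9 and 9 counts in the BCP libraries and 7, 11 and 6 in the sham libraries, entered a fit only when no filter was applied. There its log2 fold change was 0.33 (SE 0.383, adjusted p = 0.756 over 603 miRNAs).

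miR-133b-3p, the near twin of miR-133a-3p from the miR-206 locus, was also level. Its normalised CPM was 12.0, 12.8 and 12.8 in the BCP libraries and 13.2, 11.0 and 14.7 in the sham libraries. The BCP libraries were almost equal, and again the sham libraries held both extremes. The means were 12.6 ± 0.476 and 13.0 ± 1.88 (SD, n = 3 each), with a log2 fold change of −0.047 (SE 0.146, 95% interval −0.38 to 0.29, edgeR adjusted p = 0.940).

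miR-206-3p, a skeletal muscle miRNA that rises in denervated muscle and acts at the neuromuscular junction, was the least abundant member past the filter. Its normalised CPM was 6.07, 5.89 and 5.31 in the BCP libraries and 6.13, 6.31 and 4.82 in the sham libraries, from 72 to 143 counts. The groups overlapped throughout. The means were 5.76 ± 0.394 and 5.75 ± 0.817 (SD, n = 3 each), and the log2 fold change was 0.0031 (SE 0.171, 95% interval −0.39 to 0.40, edgeR adjusted p = 0.9997). Its spread over the 6 libraries came to a chi-square of 0.882 per degree of freedom, about what counting error alone gives. The same measure was 1.90 for miR-133b-3p, 8.38 for miR-1-3p, 13.0 for miR-133a-3p and 396 for miR-499-5p, each with 5 degrees of freedom. It grows with the number of counts, so it does not rank how far the members varied. The highest library was 1.31 times the lowest for miR-206-3p, 1.34 for miR-133b-3p, 1.71 for miR-1-3p and 1.36 for miR-133a-3p.

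miR-499-5p, the miRNA of the Myh7b intron that acts on Sox6 in slow fibres, was the most abundant member and the most variable. Its normalised CPM was 116, 208 and 252 in the BCP libraries and 137, 99.0 and 224 in the sham libraries. The levels fell into a lower set of BCP 1, sham 1 and sham 2 and a higher set of BCP 2, BCP 3 and sham 3, so that each group had libraries in both. The highest library was 2.55 times the lowest, against a median of 1.49 times over the tested miRNAs with counts in every library, of which 87.8% had a smaller range. The means were 192 ± 69.8 in BCP rats and 153 ± 64.1 in sham-operated rats (SD, n = 3 each). The log2 fold change of 0.33 (SE 0.351, 95% interval −0.49 to 1.14) did not pass the test (edgeR, adjusted p = 0.741). That value hung on single libraries, at 0.066 without BCP 3, 0.081 without sham 2, 0.57 without BCP 1 and 0.67 without sham 3, and it was 0.074 with the GC correction. Its biological coefficient of variation was 30.7%, above that of 95.6% of the tested miRNAs, whose median was 15.1%. The 3p strand of this hairpin had 1 count in all, beside 1505 to 3989 counts of the 5p strand in each library.

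**Figure D1:**
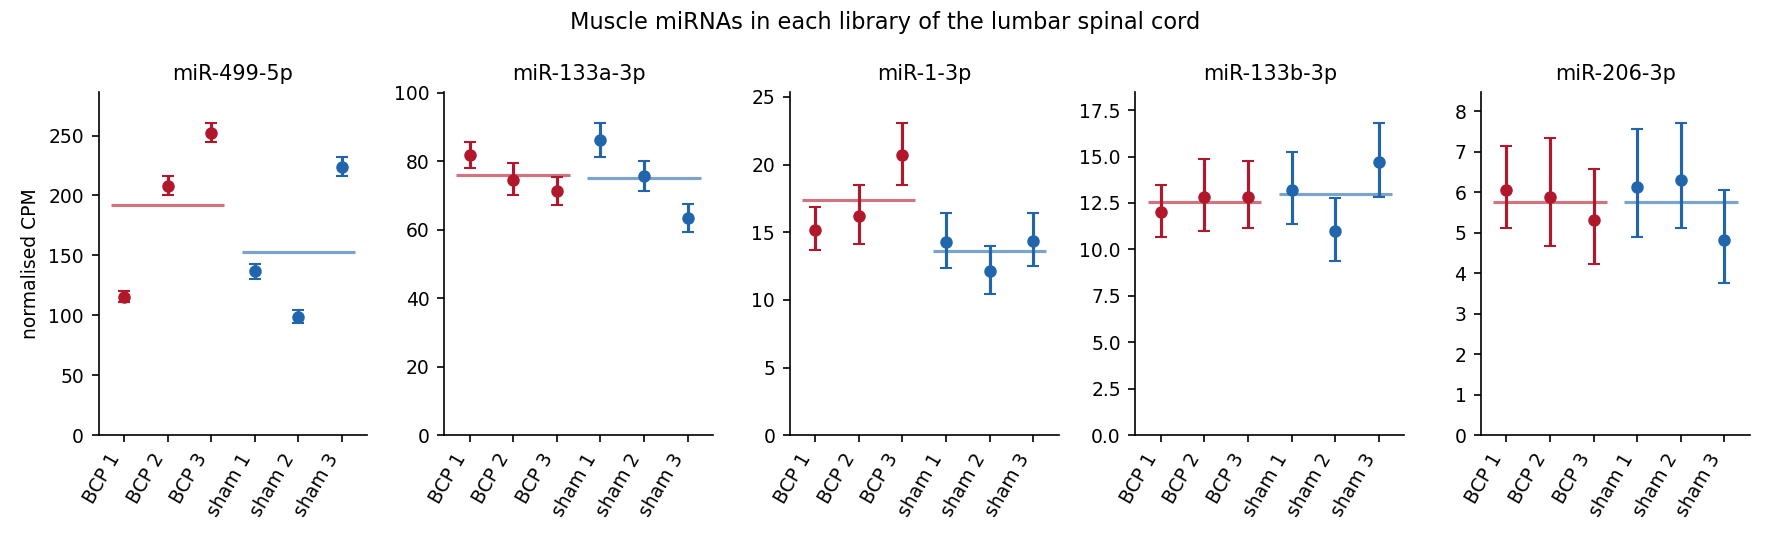
Normalised CPM (linear axis from 0, a scale of its own for each miRNA) of the 5 muscle miRNAs past the filter in the 3 BCP libraries (red) and the 3 sham libraries (blue). Points are libraries, error bars are exact 95% Poisson intervals for counting error, and horizontal lines are group means. miR-499-5p runs from 99.0 to 252, the 3 BCP points of miR-1-3p lie above its 3 sham points, and the groups overlap for the other 4.

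No muscle miRNA was called, and none of the 5 tested had an unadjusted p below 0.05 by the same edgeR test. miR-1-3p, at 0.0586, was close to that level, and its unadjusted edgeR p was 0.0414 with the replicate block and 0.0445 without BCP 1. By the same test it was 0.255 without BCP 3, 0.162 without sham 2 and 0.756 with the GC correction. Over all 459 tested miRNAs, 3.49% were called and 13.1% had an unadjusted p below 0.05. The group values did not overlap for 1 of the 5 members, miR-1-3p, with BCP higher. With total counts in place of TMM, or with the GC correction, it was 0 of 5. Over all tested miRNAs this was so for 13.3% with BCP higher and for 18.5% in either direction, so 1 of 5 was close to the background. The median log2 fold change was 0.016 over the 5 members and −0.0034 over all 459 miRNAs. The intervals of miR-133a-3p, miR-133b-3p and miR-206-3p all ended within a log2 fold change of 0.40 on either side of 0, whereas that of miR-499-5p reached 1.14 and did not bound its difference below the threshold of 0.8.

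**Figure D2:**
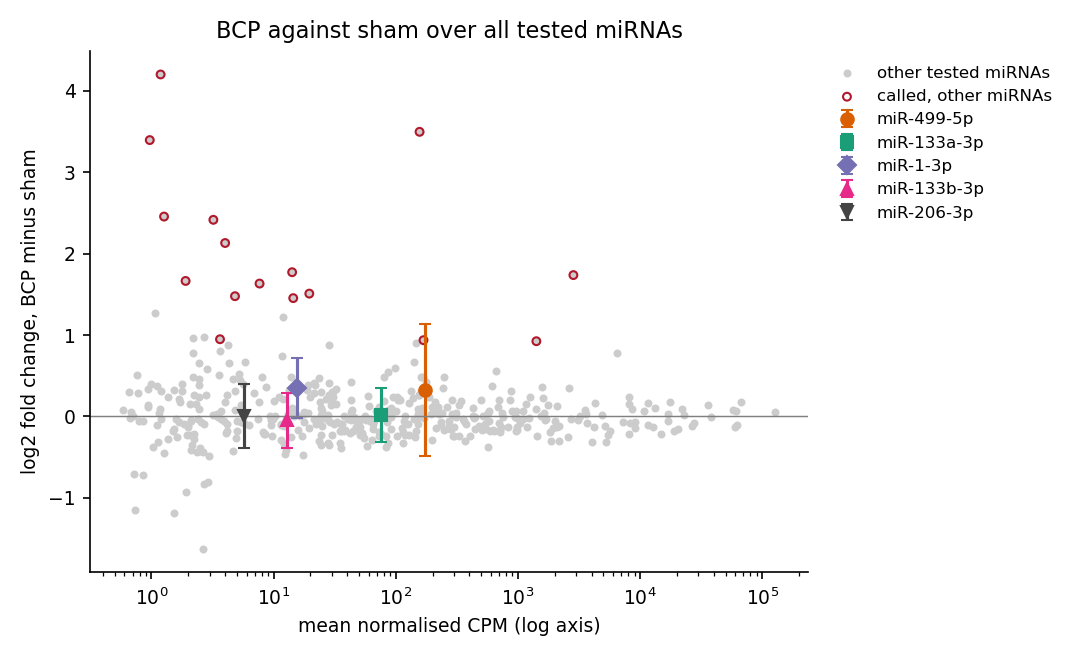
Log2 fold change of BCP against sham (vertical axis) against mean normalised CPM (horizontal log axis) for 459 tested miRNAs. Grey points are other miRNAs, red circles are the 16 called, and coloured symbols are the muscle miRNAs with 95% intervals from the edgeR fit. All 5 intervals cross 0, and the widest, from −0.49 to 1.14, belongs to miR-499-5p.

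The proportions between members varied from library to library. The ratio of miR-1-3p to miR-133a-3p counts was 0.186, 0.217 and 0.290 in BCP 1, 2 and 3, and 0.166, 0.160 and 0.227 in sham 1, 2 and 3. In BCP 3 its exact 95% interval was 0.256 to 0.329, and in sham 2 it was 0.136 to 0.187, intervals that did not overlap. They cover counting error only and not the variation between rats. The order of those libraries turned with the GC correction, which gave 0.199 in BCP 3 and 0.254 in sham 2, within a range of 0.171 to 0.254 over the 6 libraries. The mean log2 ratio was 0.32 higher in BCP rats, a difference no larger than rats of a group showed among themselves (exact permutation test, two-sided, p = 0.3, adjusted p = 0.8 over 4 ratios, with 0.1 the smallest p that 3 rats against 3 allow). It was 0.14 without BCP 3, 0.48 without sham 3 and −0.0077 with the GC correction.

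For the other locus pair, the ratio of miR-206-3p to miR-133b-3p was 0.505, 0.460 and 0.414 in the BCP libraries and 0.464, 0.575 and 0.327 in the sham libraries. Sham 2 and sham 3 held the highest and the lowest ratio, with exact intervals of 0.442 to 0.743 and 0.247 to 0.429. The groups differed by 0.045 in the mean log2 ratio (exact permutation test, p = 0.9, adjusted p = 0.9). This was −0.025 without BCP 1, −0.17 without sham 3 and 0.23 without sham 2. With the GC correction the same libraries held the extremes, at 0.618 and 0.312, and the difference was −0.0039. For the relatives that share a seed, miR-1-3p to miR-206-3p ran from 1.92 in sham 2 to 3.89 in BCP 3 (difference of the mean log2 ratio 0.34, exact permutation test, p = 0.4, adjusted p = 0.8). That difference was 0.15 without BCP 3, 0.50 without sham 3 and 0.097 with the GC correction. miR-133b-3p to miR-133a-3p was 0.147, 0.172 and 0.180 in the BCP libraries and 0.153, 0.145 and 0.232 in the sham libraries (difference −0.062, exact permutation test, p = 0.9, adjusted p = 0.9). That difference was −0.10 with the GC correction, but 0.026 without BCP 1 and 0.15 without sham 3. In this last ratio sham 3 stood above the other libraries, with miR-133b-3p at 18.8% of the reads of both (exact 95% interval 16.6% to 21.2%) against 12.7% (10.9% to 14.6%) in sham 2.

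Nor did the members order the libraries alike. miR-499-5p was highest in BCP 3, sham 3 and BCP 2, in that order, and lowest in sham 2. miR-1-3p was also highest in BCP 3 and lowest in sham 2, an order that the GC correction changed to BCP 1 highest, sham 2 next and sham 3 lowest. miR-133a-3p was highest in sham 1 and lowest in sham 3, and miR-206-3p was highest in sham 2 and lowest in sham 3. miR-133b-3p had the opposite ends from miR-206-3p, highest in sham 3 and lowest in sham 2. The spread of miR-206-3p was about what counting error alone gives, so its order is uncertain. Summed over the 5 members, the level was 231, 318 and 362 normalised CPM in the BCP libraries and 256, 204 and 321 in the sham libraries. This sum moved with miR-499-5p, which made up between 48.5% and 69.7% of it. Without miR-499-5p the sum was 115, 110 and 110 in the BCP libraries and 120, 105 and 97.4 in the sham libraries, a much narrower range. With the GC correction the sums were 302, 347 and 353 CPM in the BCP libraries and 321, 298 and 341 CPM in the sham libraries.

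Pairwise correlations of log2(normalised CPM + 1) over the 6 libraries are given as a description. All values of a library share its depth and normalization. The spread of miR-206-3p did not exceed counting error (chi-square 0.882 per degree of freedom), and that of miR-133b-3p was little above it (1.90). Correlations and library orders that involve either of them, with or without the GC correction, may therefore reflect counting noise. Of the 10 pairs, 4 had a Pearson r above 0 and 6 below, with a median of −0.30. The pairs that involve miR-1-3p depended on the GC correction, and their corrected values are given after the uncorrected ones. Both locus pairs had a negative r on the uncorrected values, with r = −0.19 (rho −0.43) between miR-1-3p and miR-133a-3p and r = −0.81 (rho −0.66) between miR-206-3p and miR-133b-3p. miR-133a-3p and miR-133b-3p, which differ by the last base, had r = −0.50 (rho −0.37). miR-1-3p and miR-206-3p, which share a seed, had r = −0.42 (rho −0.66).

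On the same uncorrected values, the pairs with a positive r lay across the loci. miR-133a-3p and miR-206-3p had r = 0.86 (rho 0.83), miR-1-3p and miR-499-5p had r = 0.75 (rho 0.71), and miR-133b-3p and miR-499-5p had r = 0.73 (rho 0.71). The r of miR-499-5p was negative with miR-206-3p, at −0.80 (rho −0.89), and with miR-133a-3p, at −0.65 (rho −0.71). The remaining pair, miR-1-3p with miR-133b-3p, had r = 0.30 (rho 0.14). When the 2 libraries farthest from the median of the first member were left out, r fell to 0.18 for miR-1-3p with miR-499-5p and went to −0.16 for miR-133b-3p with miR-206-3p, so these relations rest on those libraries. It changed sign for 3 pairs of miR-1-3p, to 0.038 with miR-133a-3p, to 0.34 with miR-206-3p and to −0.54 with miR-133b-3p. For miR-133a-3p with miR-133b-3p it was −0.39. The others named here with an absolute r above 0.6 stayed between 0.45 and 0.66 where positive and between −0.72 and −0.90 where negative. With the group means taken off, all 10 pairs kept their sign. Over total counts, another pseudocount and each library left out singly, 7 of the 10 kept it, and 5 did when the GC correction was counted too. The exceptions before that correction were miR-1-3p with miR-133a-3p (r = 0.037 without BCP 3), miR-1-3p with miR-133b-3p (−0.31 without sham 2) and miR-133a-3p with miR-133b-3p (0.16 without sham 3).

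The GC correction turned the sign of 4 pairs, all of them with miR-1-3p. In sham 2 and sham 3 miR-1-3p was at 12.1 and 14.4 CPM without the correction and at 21.7 and 13.8 CPM with it. miR-1-3p with miR-499-5p went from 0.75 to −0.88 (rho −0.83), and miR-1-3p with miR-206-3p went from −0.42 to 0.84 (rho 0.77). miR-1-3p with miR-133b-3p went from 0.30 to −0.94 (rho −0.89), and miR-1-3p with miR-133a-3p from −0.19 to 0.50 (rho 0.49), the last of which was −0.39 without the 2 farthest libraries. The other 6 pairs kept their sign over the 6 libraries. Among them miR-133b-3p with miR-206-3p was −0.89, miR-206-3p with miR-499-5p −0.85 and miR-133b-3p with miR-499-5p 0.78, while miR-133a-3p had 0.48 with miR-206-3p, −0.34 with miR-133b-3p and −0.40 with miR-499-5p. Without the 2 farthest libraries these 3 changed sign, to −0.29, 0.49 and 0.043. With the correction, as without it, 4 pairs were above 0 and 6 below, with a median of −0.37. Which members moved together thus differed between the uncorrected and the corrected values, and on neither did all 5 move together.

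**Figure D3:**
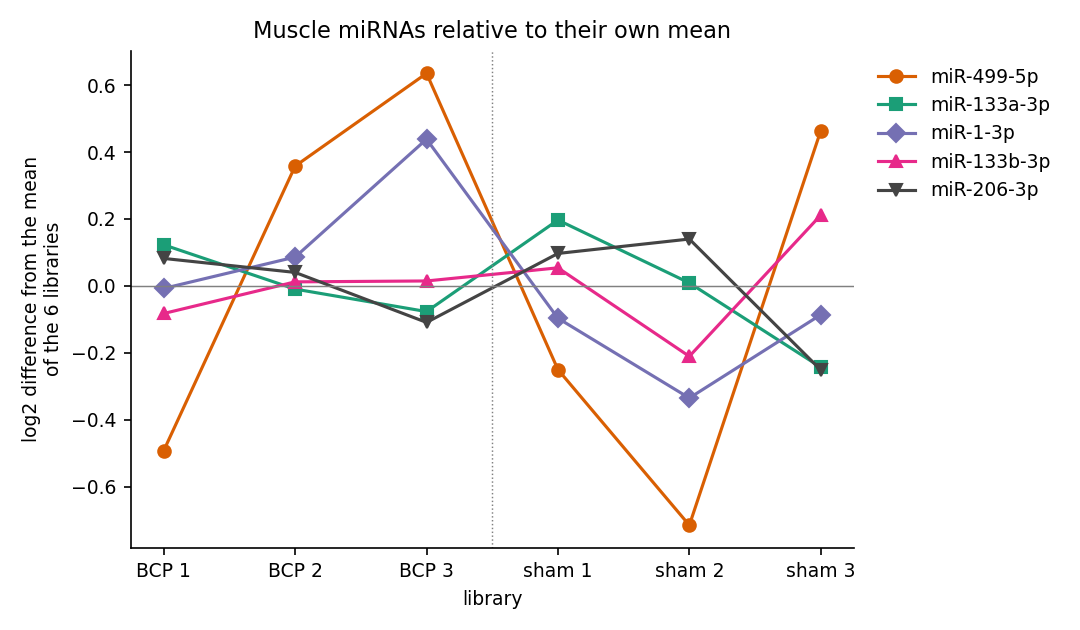
Log2 difference of each muscle miRNA from its own mean over the 6 libraries, without GC correction (vertical axis), in BCP 1 to 3 and sham 1 to 3 (horizontal axis). Lines join the values of a miRNA and have no order in time. The lines cross: miR-499-5p is high in BCP 2, BCP 3 and sham 3, where miR-133a-3p and miR-206-3p are near or below their means.

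The libraries also differed by the GC content of the miRNAs, and the members spread along that axis. The mature miR-1-3p is 31.8% G and C, miR-499-5p 33.3%, miR-206-3p 45.5%, miR-133b-3p 50.0% and miR-133a-3p 54.5%. For each library, the slope of the log2 deviation of a miRNA from its mean over libraries against its GC content was taken over 422 tested miRNAs with a RefSeq sequence, members left out. Per 10 GC points this slope was 0.068, −0.098 and −0.157 in BCP 1, 2 and 3, and 0.070, 0.200 and −0.082 in sham 1, 2 and 3. Positive slopes thus fell to BCP 1, sham 1 and sham 2, the 3 libraries with the lower miR-499-5p. The mean slope was −0.062 ± 0.117 in BCP rats and 0.062 ± 0.141 in sham-operated rats (SD, n = 3 each, exact permutation test, p = 0.2).

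For a view within each group, the libraries with the highest and the lowest miR-499-5p were set against each other, a choice made on these values. miR-499-5p ran against the GC slope over the libraries (r = −0.98), so these were also the extremes of that slope within each group. The size of the miR-499-5p difference and the trends with GC content between these libraries are therefore descriptions. In the sham group the log2 difference of sham 3 from sham 2 fell with GC content across these miRNAs (r = −0.57 across miRNAs, which are not independent replicates). The miRNAs were split into 4 bins of rising GC content. The median difference was 0.44 in the first bin (123 miRNAs), then 0.062 (97), −0.21 (97) and −0.24 (105). For the members it was 1.17 for miR-499-5p, 0.23 for miR-1-3p, −0.33 for miR-206-3p, 0.39 for miR-133b-3p and −0.25 for miR-133a-3p. Between BCP 3 and BCP 1 (r = −0.62) it was 1.12 for miR-499-5p, 0.42 for miR-1-3p, −0.16 for miR-206-3p, 0.090 for miR-133b-3p and −0.20 for miR-133a-3p. The differences of miR-206-3p and miR-133b-3p, of middle composition, had opposite signs in both. For miR-206-3p the counting intervals of the compared libraries overlapped in both groups, so a movement is not shown. For miR-133b-3p they overlapped between BCP 3 and BCP 1 and only just parted in the sham group (up to 12.78 CPM in sham 2 and from 12.83 CPM in sham 3).

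**Figure D4:**
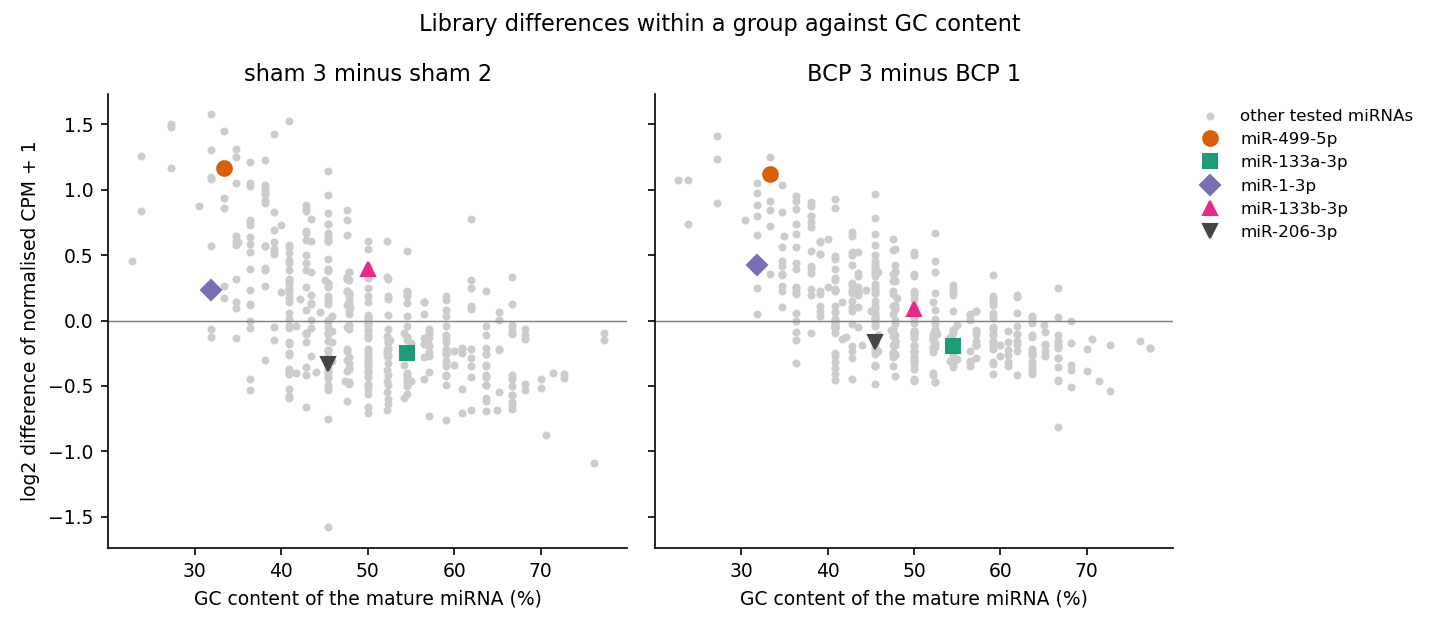
Log2 difference of normalised CPM + 1 between 2 libraries of the same group (vertical axis), sham 3 minus sham 2 on the left and BCP 3 minus BCP 1 on the right (in each group the libraries with the highest and lowest miR-499-5p), against the GC content of the mature miRNA in percent (horizontal axis). Grey points are other tested miRNAs and coloured symbols the muscle miRNAs. Values fall with GC content in both panels (r = −0.57 and −0.62), and miR-499-5p lies near the top at 1.17 and 1.12.

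Over the 6 libraries, miR-499-5p had r = −0.98 with the library's GC slope (rho −0.89, and −0.96 without the 2 farthest libraries). miR-1-3p had r = −0.84 (rho −0.94), but −0.41 without the 2 farthest libraries. The values were 0.55 for miR-133a-3p, 0.74 for miR-206-3p and −0.68 for miR-133b-3p. A fit with a GC correction per library, chosen after seeing the data, was made over the 427 tested miRNAs with a sequence and called 20 of them and no member. After the correction miR-499-5p was at 164, 215 and 225 CPM in the BCP libraries and 180, 170 and 222 in the sham libraries, so its highest library was 1.37 times its lowest. Its log2 fold change was then 0.074 (SE 0.150, edgeR adjusted p = 0.868). For miR-1-3p the corrected log2 fold change was 0.061 (SE 0.190, edgeR adjusted p = 0.906). For miR-133a-3p the range narrowed from 1.36 to 1.22 times and for miR-1-3p only from 1.71 to 1.61 times. For miR-206-3p and miR-133b-3p it widened, from 1.31 to 1.39 and from 1.34 to 1.42 times. The corrected miR-1-3p was highest in BCP 1, sham 2 and sham 1, the libraries with positive GC slopes. Whether the correction took off too much for miR-1-3p was not tested. What made the libraries differ along GC content was not tested.

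On the uncorrected values, the miRNAs most like the mean of the 5 members over the 6 libraries were miR-26a-5p (r = 0.996), miR-26b-5p (0.992), miR-135a-5p (0.986), miR-598-3p (0.977) and miR-322-5p (0.974). miR-26a-5p lay at 33195, 38343 and 41190 normalised CPM in the BCP libraries and 35875, 30205 and 35787 in the sham libraries, far above any muscle miRNA. That mean followed miR-499-5p (r = 0.92) and miR-1-3p (r = 0.89) more than miR-133b-3p (0.63), and it ran against miR-133a-3p (−0.31) and miR-206-3p (−0.58). Likeness to miR-499-5p was common in the table, with r above 0.9 for 66 and below −0.9 for 55 of the 454 other tested miRNAs.

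The markers of other cell types were summed as CPM of the total counts in each library. Of the other striated muscle miRNAs, miR-208b-3p of slow and cardiac muscle was listed at 0 throughout, miR-208a-3p had 1 count in BCP 2, and miR-486 had no row. The miR-1 and miR-133 relatives miR-1b and miR-133c were listed at 0 everywhere, and these zeros, like those of miR-21, do not bound a level. The remaining rows of that list, miR-378a-3p and miR-378a-5p, are not particular to muscle and had log2 fold changes of 0.093 (adjusted p = 0.745) and 0.42 (adjusted p = 0.133), with 0 of 2 called. The list summed to between 1447 and 1530 CPM in BCP rats and between 1330 and 1504 in sham-operated rats. The smooth muscle and mural cell miRNAs, miR-143 and miR-145, had 0 of 4 rows called and summed to 7784 to 10042 CPM and 7169 to 9760 CPM. Their leading row, miR-143-3p, had a log2 fold change of 0.16 (adjusted p = 0.685), and miR-145-5p one of −0.16 (adjusted p = 0.647).

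Of the fibroblast and mesenchymal list, 0 of 5 tested rows were called, and it summed to 3831 to 4086 CPM in BCP rats and 3640 to 4011 CPM in sham-operated rats, led by miR-10b-5p and miR-10b-3p. All 4 erythroid rows (miR-451 and miR-144) were listed at 0 in every library, as were both arms of miR-142, a miRNA of white blood cells. With miR-21 and miR-186 listed at 0 as well, these rows give no measure of blood in the tissue. In the white blood cell list 2 of 4 tested rows were called higher in BCP rats, and over all tested miRNAs 3.49% were called. These 2 rows were the arms of miR-223 of myeloid cells, and miR-223-3p had a log2 fold change of 2.13 (SE 0.373, edgeR adjusted p = 0.019). The list summed to 965 to 1277 CPM in BCP rats and 1152 to 1368 CPM in sham-operated rats. Nearly all of it was miR-150-5p, with a log2 fold change of −0.13 (edgeR adjusted p = 0.725). In the epithelial list 1 of 5 tested rows, miR-200c-3p, was called higher (log2 fold change 1.63, edgeR adjusted p = 0.0056), with sums of 34.3 to 45.6 CPM and 21.5 to 24.6 CPM. Its leading rows, miR-203a-3p and miR-205, were not called. The neural and glial miRNAs, led by miR-9a-5p and miR-128-3p, summed to 149403 to 156154 CPM and 151937 to 154224 CPM with 0 of 15 rows called, so the defining miRNAs of the labelled tissue were abundant in every library. Counted in the same way, the muscle miRNAs summed to 229 to 358 CPM in BCP rats and 203 to 340 CPM in sham-operated rats. The part of other cell types in the levels of the muscle miRNAs was not tested.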

How the data were processed

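The values were the authors' deposited read counts per known mature miRNA, without normalization. Per the study's methods, reads were trimmed and filtered, clean reads were mapped with Bowtie2 2.2.3 to Rnor 6.0, and known miRNAs were identified by length and miRBase. The handling of reads that match several miRNAs is not given in the sources used here. All 6 columns were assigned to a rat, and 0 were left over. The comparison used edgeR 4.0.16 under R 4.3.3 (filterByExpr with a minimum of 10, TMM, quasi-likelihood test, Benjamini-Hochberg), with DESeq2 1.42.0 and limma 3.58.1 as alternatives. The test recovered known changes in simulated data. Ratios of counts, with 0.5 added to each, were tested over rats by two-sided exact permutation. No libraries of a group agreed within sampling noise (lowest chi-square 50.8 per degree of freedom). The replicate numbers of the labels were not taken as pairs, because same-numbered libraries deviated with r = 0.11, −0.45 and 0.71. Whether the numbers mark a shared batch is not known.

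Members, marker lists and tests were chosen with earlier results of these data known. The text names every member, the 2 most abundant rows of each list and the 5 tested miRNAs most like the mean of the members. miR-26a-5p's levels, miR-200c-3p, the miR-223 arms and rows listed at 0 (miR-21 and miR-186 among them) were named after their values were seen, and the GC correction, a lowess of span 0.5 on GC content in each library, was added after seeing the data.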

Additional observations from a re-analysis of the deposited data

How the results depend on the processing

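In every setting tried, 0 members were called. These settings were no filter, at least 10 counts in every library, total counts, RLE, limma-voom, DESeq2, the likelihood ratio and exact tests of edgeR, leaving out each rat, the replicate block, miR-133a-3p and miR-133b-3p summed, and the GC correction. The log2 fold change of miR-1-3p stayed between 0.061 and 0.43 (adjusted p from 0.234 to 0.958) and that of miR-499-5p between 0.066 and 0.67 (adjusted p from 0.212 to 0.995). Values near 0 changed sign. miR-206-3p came to −0.0021 with no filter, −0.0066 with total counts, −0.019 with RLE, −0.019 with DESeq2, −0.00078 with the miR-133 rows summed and −0.044 with the GC correction. miR-133a-3p came to −0.0044 with RLE and −0.0041 with DESeq2. Leaving out a rat gave −0.14 to 0.072 for miR-206-3p, −0.12 to 0.096 for miR-133a-3p and −0.16 to 0.021 for miR-133b-3p. Over all miRNAs, 16 were called, 25 by the likelihood ratio test and 8 to 20 with a rat left out (8 without BCP 2, 9 without sham 1 and 10 without BCP 3). With the replicate block, 18 were called. The log2 fold change was then 0.34 for miR-1-3p (unadjusted edgeR p of 0.0414, adjusted p = 0.307). It was 0.33 for miR-499-5p (SE 0.220, against 0.351 without the block, edgeR adjusted p = 0.534). Same-numbered rats deviated with r = 0.11, −0.45 and 0.71, so the numbers were not taken as pairs. Leaving out a rat moved the difference in the log2 ratio of miR-1-3p to miR-133a-3p between 0.14 and 0.48, that of miR-1-3p to miR-206-3p between 0.15 and 0.50, that of miR-206-3p to miR-133b-3p between −0.17 and 0.23 and that of miR-133b-3p to miR-133a-3p between −0.19 and 0.15. Without BCP 1, and likewise without sham 3, miR-206-3p to miR-133b-3p was negative and miR-133b-3p to miR-133a-3p positive. With the GC correction the differences were −0.0077 for miR-1-3p to miR-133a-3p, −0.0039 for miR-206-3p to miR-133b-3p, 0.097 for miR-1-3p to miR-206-3p and −0.10 for miR-133b-3p to miR-133a-3p. The median r between members was −0.47 with total counts and −0.32 to −0.096 with a rat left out. The causes of these shifts were not tested. Of the 5 tested members miR-206-3p had the fewest counts, 72 in its lowest library, and the other 5 members did not pass the filter.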
